A study of Mus musculus with 2 samples.

Results

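The SLC25 family of mitochondrial carriers was followed in mouse hearts through every gene whose symbol in the platform annotation starts with Slc25a. There were 29 such genes among 16390 named genes on the array, each with 1 probe, and 26 of the 29 (89.7%) were detected in all 4 hearts, against 11703 of all 16390 genes (71.4%). RNA came from whole hearts of 6-month-old male mice on the C57BL/6J background. The 4 groups, each of 1 heart, were calorically restricted (CR) mice lacking Sirt1 in cardiomyocytes, freely fed (ad libitum, AL) mice lacking Sirt1 in cardiomyocytes, CR control mice and AL control mice. Feeding lasted 3 months and the restriction was by 40%. The labels name neither the promoter that drove the deletion nor the alleles that the control mice carried.

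Mitochondrial carriers are small proteins of the inner mitochondrial membrane, which exchange nucleotides, phosphate, organic acids, amino acids and cofactors between the matrix and the cytosol. In heart muscle the adenine nucleotide translocators bring ADP in and ATP out, and the phosphate carrier supplies the other substrate of ATP synthase. The aspartate-glutamate and 2-oxoglutarate carriers form the membrane part of the malate-aspartate shuttle, which moves reducing equivalents of cytosolic NADH into mitochondria. Sirt1 is a nuclear NAD-dependent deacetylase, and the comparisons ask how carrier transcripts in the heart differ with diet and whether that difference is alike in hearts with and without it.

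Each of 2 arrays held a CR heart labelled with Cy3 and an AL heart labelled with Cy5, of the same genotype. The dyes were not swapped, so diet and dye cannot be told apart, nor can genotype and array. With 1 heart a group there is no replicate check, no SD and no test: a difference describes these hearts, and the number of arrays limits its precision. Levels are log2 normalized signals of a probe, comparable between hearts but not between probes, and a gene was counted as apart where hearts differed by at least 1.5-fold (0.585 on the log2 scale). An offset of 50 added to every signal makes the values smaller, most of all for dim genes. Between 74.0% and 80.8% of probes were detected in a heart. All 10 cardiomyocyte markers on the array were detected in every heart. For the targeted gene, Sirt1, log2 signals were 7.51 (CR) and 7.07 (AL) in the knockout hearts, against 7.53 (CR) and 7.11 (AL) in the control hearts. The place of its probe relative to the deleted part is not known here, so this does not check the genotype.

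The members that were not detected everywhere were Slc25a2, Slc25a34 and Slc25a18. Slc25a2, an ornithine carrier, and Slc25a34, whose substrate is unsettled, were below the detection threshold in all 4 hearts. Slc25a18, a mitochondrial glutamate carrier, was below the threshold in both knockout hearts and just above it in both control hearts: its spot read 82.9 scanner units in the control CR heart, where the threshold was 79.6, and 34.9 in the control AL heart, where it was 34.8. The resulting bounds, at least 1.03-fold lower in the knockout heart under CR and even closer to equality under AL, allow hearts with no difference. Nearest to the threshold among the detected members was Slc25a15, the main ornithine carrier, whose spot in the knockout CR heart lay 2.82 scanner units above it.

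Slc25a4, the adenine nucleotide translocator of heart and skeletal muscle, was lower with CR in the Sirt1 knockout hearts. Its log2 signal was 15.08 in the knockout CR heart and 15.87 in the knockout AL heart, against 15.38 in the control CR heart and 15.71 in the control AL heart. The CR over AL value was thus -0.79 (1.73-fold lower) in the knockout hearts and -0.33 in the control hearts. The knockout CR heart was the lowest of the 4 and both CR hearts lay below both AL hearts. The difference between the responses, knockout minus control, was -0.46, and the difference between the genotypes was -0.30 under CR and 0.15 under AL.

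The Slc25a4 spot was among the 11 to 13 spots of a heart whose value is a whole number, as unscaled readings at the lowest of 3 scanner gains are. It read 38139 and 55061 scanner units in the knockout CR and AL hearts, against 45277 and 53317 in the control CR and AL hearts, below the ceiling of 65535. In the authors' deposited table of log2 ratios, Slc25a4 had CR over AL values of -0.68 in the knockout hearts and -0.60 in the control hearts, a difference between the responses of -0.08. The lower signal with CR was thus present on both arrays, whereas the size of the difference between the arrays was not alike in the 2 normalizations.

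Slc25a5, the adenine nucleotide translocator that most tissues and dividing cells express, ran the other way in control hearts. Its log2 signal was 12.22 in the knockout CR heart and 12.34 in the knockout AL heart, against 11.92 in the control CR heart and 11.31 in the control AL heart. The control AL heart was the lowest of the 4, and both knockout hearts lay above both control hearts. CR over AL was 0.61 (1.53-fold higher) in the control hearts and -0.12 in the knockout hearts. This left a difference between the responses of -0.73, a 1.66-fold difference, which was the lowest of the 26 members. The knockout heart was higher than the control heart by 1.03 (2.04-fold) under AL and by 0.30 under CR. The CR value was 0.01 with median scaling and 1.26 with the local background subtracted.

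In the authors' deposited table Slc25a5 had CR over AL values of -0.07 in the knockout hearts and 0.47 in the control hearts, the second of these below 1.5-fold. Under loess within each block of the array its control value was 0.42, also below that threshold. The response difference fell short of it as well, at -0.53 in that table and -0.58 under loess within blocks. Slc25a4 and Slc25a5 encode closely related proteins. The probe sequences are not used here, so how far a probe for one also binds transcripts of the other is not known.

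The 250 bases before the annotated start of both translocator genes are shown, since the diet values of the pair differed in direction in the control hearts, with those of 3 further carriers with values of at least 0.4 in some comparison. They come from RefSeq for GRCm38.p6 and run 5′ to 3′ on the gene's own strand. Slc25a4 lies on chr8:46211063-46211312 (minus strand), Slc25a5 on chrX:36795347-36795596 (plus), Slc25a3 on chr10:91123968-91124217 (minus), Slc25a12 on chr2:71367756-71368005 (minus) and Slc25a13 on chr6:6217174-6217423 (minus). Capitals mark matches to 4 motifs searched on both strands. These were the NRF1 core (GCGC, any base, then TGCGC), the ERR half-site (AAGGTCA), the CRE (TGACGTCA) and the E-box (CACGTG).
Slc25a4: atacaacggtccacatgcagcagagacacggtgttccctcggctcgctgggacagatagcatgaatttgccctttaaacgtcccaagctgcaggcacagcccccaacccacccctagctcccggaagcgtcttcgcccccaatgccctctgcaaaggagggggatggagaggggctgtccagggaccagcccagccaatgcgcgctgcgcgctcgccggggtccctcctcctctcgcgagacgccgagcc
Slc25a5: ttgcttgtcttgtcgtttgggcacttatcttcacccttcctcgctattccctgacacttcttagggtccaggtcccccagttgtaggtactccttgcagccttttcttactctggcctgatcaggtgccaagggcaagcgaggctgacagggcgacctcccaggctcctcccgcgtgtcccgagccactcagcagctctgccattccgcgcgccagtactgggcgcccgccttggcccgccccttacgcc
Slc25a3: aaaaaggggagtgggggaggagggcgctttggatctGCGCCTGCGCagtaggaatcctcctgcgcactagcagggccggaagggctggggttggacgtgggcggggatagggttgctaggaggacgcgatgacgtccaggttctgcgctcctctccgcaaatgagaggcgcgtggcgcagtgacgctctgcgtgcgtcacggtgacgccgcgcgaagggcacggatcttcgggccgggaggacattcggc
Slc25a12: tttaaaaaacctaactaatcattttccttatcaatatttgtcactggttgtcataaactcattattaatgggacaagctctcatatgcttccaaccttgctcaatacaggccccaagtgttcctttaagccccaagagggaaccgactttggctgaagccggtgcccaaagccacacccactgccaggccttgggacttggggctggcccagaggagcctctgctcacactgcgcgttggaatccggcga
Slc25a13: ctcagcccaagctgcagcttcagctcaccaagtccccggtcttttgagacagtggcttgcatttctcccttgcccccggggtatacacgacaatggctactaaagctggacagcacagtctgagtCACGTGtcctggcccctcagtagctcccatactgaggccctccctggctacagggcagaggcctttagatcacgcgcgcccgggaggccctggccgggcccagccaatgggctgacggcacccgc
The window of Slc25a3 held the NRF1 core with its first base 214 bases before the start, a motif present in 3.86% of 27025 promoter windows. The window of Slc25a13 held the E-box with its first base 125 bases before the start, present in 6.05% of windows. Among the 23 members with an entry, 4 windows (17.4%) held the E-box: those of Slc25a13, Slc25a36, Slc25a1 and Slc25a14. The ERR half-site was in 1 of the 23 (Slc25a34) and in 4.05% of all windows, and the CRE in 1 (Slc25a36) and 1.62% of all. None of the 4 motifs was in the windows of Slc25a4, Slc25a5 or Slc25a12. A match is only a match of letters in this window, and the windows were chosen after the values had been seen.

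**Figure D1:**
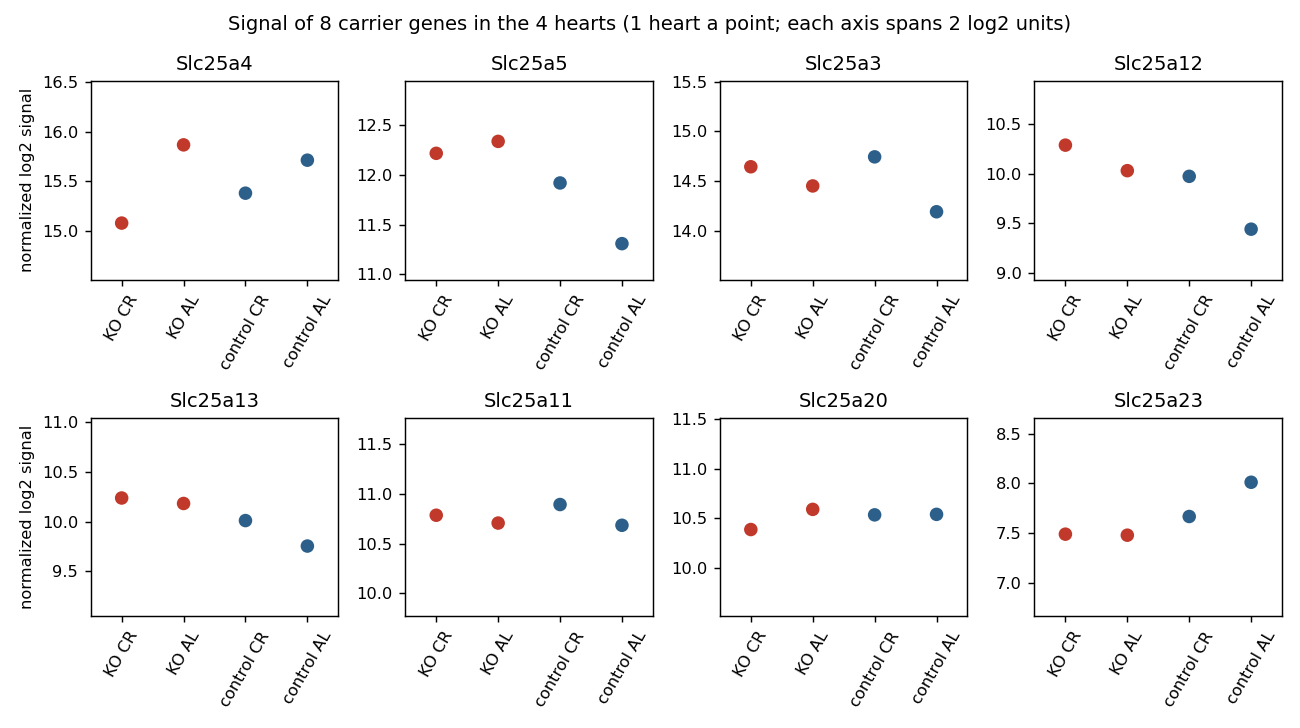
Log2 normalized signal (vertical axes, each spanning 2 log2 units) of 8 carriers in the knockout CR, knockout AL, control CR and control AL hearts, 1 point a heart. Slc25a4 was lowest in the knockout CR heart at 15.08, and Slc25a5 and Slc25a12 were lowest in the control AL heart at 11.31 and 9.44.

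Slc25a3, the phosphate carrier, which also takes copper into mitochondria, was higher with CR on both arrays. Log2 signals were 14.64 in the knockout CR heart and 14.45 in the knockout AL heart, against 14.74 in the control CR heart and 14.19 in the control AL heart. CR over AL was 0.19 in the knockout hearts and 0.55 (1.47-fold) in the control hearts, and both CR hearts lay above both AL hearts. The authors' deposited table gave 0.29 and 0.32 for the knockout and control hearts, which leaves -0.03 between the responses in place of -0.36. The control value passed 1.5-fold with loess within blocks (0.60) and with the local background subtracted (0.64). The Slc25a3 spot read 30317 in the control CR heart, a whole number as at the lowest gain. Its readings in the knockout CR (26254.7), knockout AL (19411.3) and control AL (18918.4) hearts were not whole, and the part of the gain was not tested.

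Slc25a23 exchanges ATP-Mg for phosphate and so can set the adenine nucleotide content of the matrix. Its log2 signal was 7.49 in the knockout CR heart and 7.48 in the knockout AL heart, against 7.67 in the control CR heart and 8.01 in the control AL heart. The control AL heart stood highest and the knockout hearts were alike. CR over AL was 0.01 in the knockout hearts and -0.34 in the control hearts. The difference of 0.36 was the highest of the 26 members as normalized here. The knockout over control value was -0.53 under AL (1.45-fold lower) and -0.18 under CR, and these turned to 0.60 and 0.61 with the local background subtracted. In that setting the control diet value was -0.08, the response difference was 0.01, and members such as Slc25a13 (0.92) had higher ones. With an offset of 0 and in the authors' deposited table Slc25a25 had a higher response difference than Slc25a23.

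The related ATP-Mg carriers had smaller response differences as normalized here, at -0.09 for Slc25a24 and 0.23 for Slc25a25. That of Slc25a25 was 0.67 with an offset of 0 and 0.82 in the authors' deposited table. Both lay above those of Slc25a23 (0.47 and 0.48). Slc25a25 had log2 signals of 6.37 and 6.19 in the knockout CR and AL hearts, against 6.19 and 6.25 in the control CR and AL hearts, so the knockout CR heart stood above the other 3. It was near the lower end of detection: its CR over AL value in the knockout hearts was 0.18 here, 0.51 with an offset of 0 and 0.63 in the authors' deposited table. Slc25a24 was lower with CR at -0.20 in the knockout hearts and -0.10 in the control hearts.

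Of the cofactor carriers, Slc25a26, which brings S-adenosylmethionine into mitochondria, was lower with CR on both arrays. The log2 signal stood at 7.99 in the knockout CR heart and 8.19 in the knockout AL heart, against 8.14 in the control CR heart and 8.46 in the control AL heart. CR over AL was -0.21 in the knockout hearts and -0.32 in the control hearts, and the knockout hearts lay below the control hearts under both diets (-0.16 under CR and -0.27 under AL). With the local background subtracted these were -0.02 and 0.10, the second with its sign turned. Slc25a17, a peroxisomal carrier of coenzyme A and related cofactors, had -0.10 in the knockout hearts and 0.09 in the control hearts. Slc25a32, the folate carrier, and Slc25a36, a pyrimidine nucleotide carrier, had diet values between -0.08 and 0.07. None of the 8 phosphate, ATP-Mg and cofactor carriers was 1.5-fold apart in any of the 5 comparisons as normalized here. In other settings 4 of them were in at least 1 comparison. Slc25a24 (-0.61) and Slc25a25 (0.63) were with diet in the knockout hearts in the authors' deposited table. Slc25a23 was under AL with an offset of 0 (-0.71) and with the local background subtracted (0.60). Slc25a3 was in the latter setting under AL (1.53), under CR (1.10) and with diet in the control hearts (0.64). More of all genes passed there too: 953 were higher and 729 lower with diet in the knockout hearts in the authors' table, against 94 and 92 here. Under AL 1244 and 1213 were with the local background subtracted, against 332 and 227 here.

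The aspartate-glutamate carriers Slc25a12 (aralar, the form of muscle and brain) and Slc25a13 (citrin, the main form of liver) were higher with CR and higher in the knockout hearts. The log2 signal of Slc25a12 was 10.29 in the knockout CR heart and 10.03 in the knockout AL heart, against 9.97 in the control CR heart and 9.44 in the control AL heart. Both knockout hearts lay above both control hearts. CR over AL was 0.26 in the knockout hearts and 0.53 in the control hearts, and knockout over control was 0.59 under AL (just past 1.5-fold) and 0.31 under CR.

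Slc25a13 had log2 signals of 10.24 and 10.18 in the knockout CR and AL hearts, against 10.01 and 9.75 in the control CR and AL hearts. Again the knockout hearts lay above the control hearts and the control AL heart was lowest. CR over AL was 0.06 in the knockout hearts and 0.26 in the control hearts, and knockout over control was 0.43 under AL and 0.23 under CR. The values of this pair depended on the local background, whose subtraction also moved the diet value of Slc25a13 in the knockout hearts to 1.33, past 1.5-fold. With the brightness around each spot subtracted, Slc25a12 turned to -1.36 under AL and -1.40 under CR, and Slc25a13 to -1.28 and -0.36. With median scaling and with loess within blocks Slc25a12 under AL missed 1.5-fold (0.44 and 0.57). The brightness around the Slc25a12 spot was 91.5% (CR) and 93.0% (AL) of the spot's own on the knockout array, against 60.3% and 55.4% on the control array.

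Slc25a11, the 2-oxoglutarate-malate carrier and the partner of aralar in the shuttle, had diet values of 0.08 in the knockout hearts and 0.21 in the control hearts and genotype values of 0.02 under AL and -0.11 under CR. With the local background subtracted the genotype values were 1.19 and 1.22, past 1.5-fold, and with median scaling they were -0.20 and -0.33. The citrate carrier Slc25a1, which exports citrate for fatty acid synthesis, had log2 signals of 6.96 and 7.23 in the knockout CR and AL hearts, against 7.06 and 7.18 in the control CR and AL hearts. Both CR hearts were lower than the AL hearts, at -0.26 in the knockout pair and -0.12 in the control pair. The dicarboxylate carrier Slc25a10 had log2 signals of 6.48 and 6.45 in the knockout CR and AL hearts, against 6.50 and 6.67 in the control CR and AL hearts, with the control AL heart highest.

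Slc25a22, a glutamate-proton symporter, was lower in the knockout hearts under both diets. Log2 signals were 7.77 in the knockout CR heart and 7.97 in the knockout AL heart, against 8.06 in the control CR heart and 8.30 in the control AL heart. Knockout over control was -0.34 under AL and -0.29 under CR, while the diet values were nearly alike (-0.20 in the knockout hearts and -0.24 in the control hearts). Slc25a21, a carrier of oxodicarboxylates, had genotype values of 0.30 under AL and 0.26 under CR, which turned to -0.03 and -0.12 with the local background subtracted.

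Among the carriers of carnitine and amino acids, no member was 1.5-fold apart as normalized here. Slc25a20, the carnitine-acylcarnitine carrier that brings long-chain acyl groups in for beta-oxidation, had log2 signals of 10.39 and 10.59 in the knockout CR and AL hearts, against 10.53 and 10.54 in the control CR and AL hearts. Its diet values were -0.20 in the knockout hearts and -0.01 in the control hearts, the second of which became -1.11 with the local background subtracted. Slc25a29, which carries basic amino acids, had -0.10 and -0.15 in the knockout and control hearts, and Slc25a15 had -0.10 and -0.08. In the knockout hearts Slc25a15 had -0.43 with an offset of 0 and -0.63, past 1.5-fold, in the authors' deposited table. All 3 detected members of the group were below 0 on both arrays, except Slc25a20 in the control hearts with median centring (0.07) and with loess within blocks (0.03).

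The iron carriers of the inner membrane, Slc25a37 (mitoferrin of erythroid cells) and Slc25a28 (mitoferrin of other tissues), had diet values between -0.09 and 0.17. The uncoupling-protein-like carriers Slc25a14, Slc25a27 and Slc25a30 were above 0 with CR on both arrays and below 0 in the knockout hearts under both diets. Exceptions arose in other settings. With the local background subtracted the knockout diet value of Slc25a30 was -0.04 and the AL genotype value of Slc25a14 was 0.01. With loess within blocks the control diet value of Slc25a30 was -0.004. Slc25a14 had log2 signals of 6.50 and 6.31 in the knockout CR and AL hearts, against 6.54 and 6.43 in the control CR and AL hearts, with both CR hearts above both AL hearts. Slc25a30 had log2 signals of 6.37 and 6.33 in the knockout CR and AL hearts, against 6.62 and 6.59 in the control CR and AL hearts, so the genotype value was -0.25 under CR and -0.26 under AL. With an offset of 0 these genotype values were -0.56 and -0.61.

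Slc25a35, a member of unsettled substrate, had log2 signals of 7.11 and 7.12 in the knockout CR and AL hearts, against 6.73 and 6.87 in the control CR and AL hearts. Its genotype value under CR, 0.37, was the highest of the members, and under AL it was 0.25. With the local background subtracted these were -0.01 and 0.09, and with an offset of 0 they were 0.64, past 1.5-fold, and 0.40.

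Over the 26 members compared in the knockout hearts, 12 CR over AL values were above 0 and 14 below (50.1% of all 12145 genes were above 0), and the median was -0.02, against 0.00 over all genes. At least 1.5-fold apart was 1 member, Slc25a4, while 1.53% of all genes were. In the control hearts 27 members could be compared, since Slc25a18 was detected in both: 12 were above 0 and 15 below (51.4% of all 12662 genes were above 0), with a median of -0.05 against 0.00 over all genes. There too 1 member, Slc25a5, was at least 1.5-fold apart, against 1.16% of all genes. The difference between the responses had a median of -0.00 (all genes -0.00) with 13 members above and 13 below 0 (49.0% of all genes above 0), and 1 member, Slc25a5, was at least 1.5-fold apart, against 0.914% of 11703 genes. A count of 1 in 26 or 27 is too coarse a share to be read as above or below these percentages.

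Both arrays gave the diet value the same sign for 21 of the 26 members (80.8%), against 67.1% of the 11703 genes detected in all hearts. Across the 26 members the diet values of the 2 arrays had a Pearson correlation of 0.53 and a Spearman correlation of 0.59. Over the 11703 genes these were 0.59 and 0.54. The arrays share no heart but have the same dye on the same diet, and the part of the dyes in the shared signs was not tested.

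**Figure D2:**
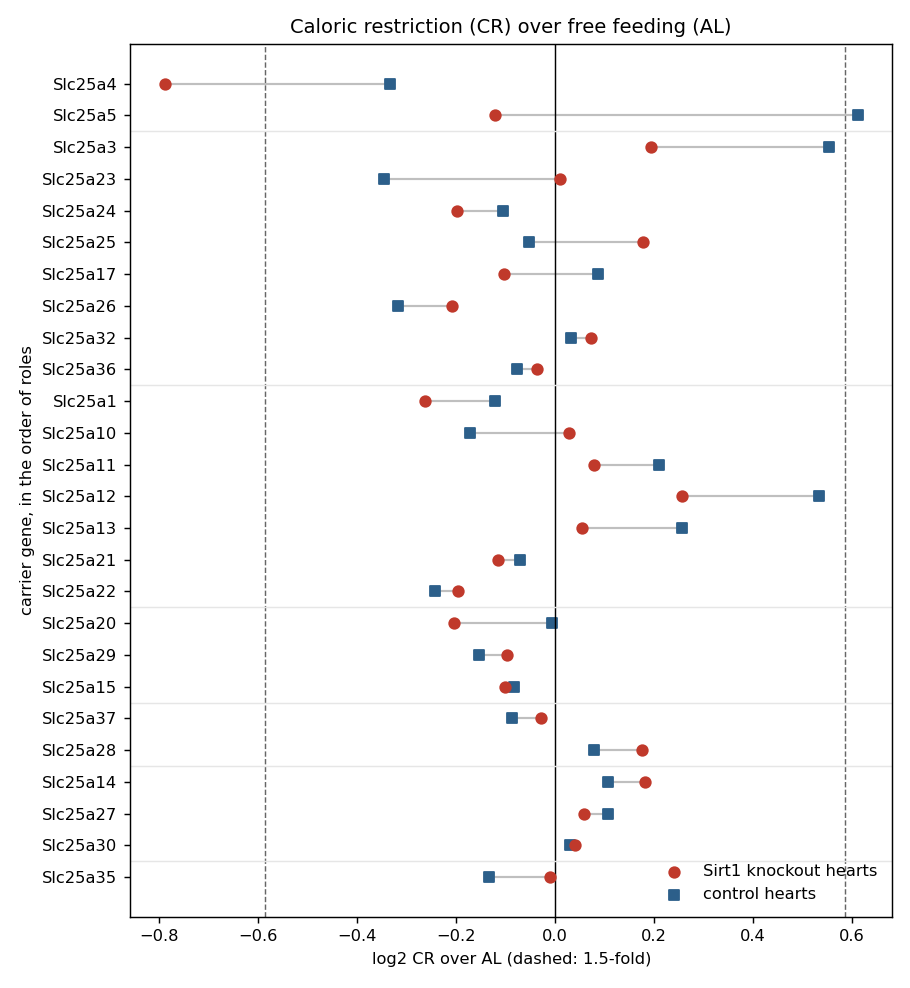
Log2 CR over AL (horizontal axis) of the 26 carriers detected in all 4 hearts, in the order of roles; circles stand for the Sirt1 knockout hearts, squares for the control hearts, and dashed lines mark 1.5-fold. Most pairs lie within 0.3 of 0, with Slc25a4 at -0.79 in the knockout hearts and Slc25a5, Slc25a3 and Slc25a12 at 0.61, 0.55 and 0.53 in the control hearts.

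Knockout over control values ran between -0.53 (Slc25a23) and 1.03 (Slc25a5) under AL and between -0.30 (Slc25a4) and 0.37 (Slc25a35) under CR. Among 26 members under AL 13 were above 0 and 13 below (52.5% of all genes were above 0), the median was 0.01 (all genes 0.01), and 2 members, Slc25a5 and Slc25a12, were at least 1.5-fold apart, both higher in the knockout heart, while 4.37% of all 12792 genes were at least 1.5-fold apart. Under CR 9 were above 0 and 17 below (50.9% of all genes were above 0), the median was -0.05 (all genes 0.00), and 0 of 26 members were 1.5-fold apart, against 2.52% of 11962 genes. These 2 comparisons and the 2 diet comparisons come from the same 4 hearts, so the response difference of a gene equals its genotype difference under CR minus that under AL.

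Some markers of other cells differed between the genotypes. The median knockout over control values of the endothelial, smooth muscle and adipocyte lists lay between -0.09 and 0.12 over the 2 diets. Even so, 1 of 6 endothelial and 1 of 6 smooth muscle markers were at least 1.5-fold higher in the knockout heart under both diets. These were Flt1 (0.99 under AL and 0.72 under CR) and Rgs5 (1.23 and 0.95). The skeletal muscle list had medians of 0.09 under AL and 0.04 under CR. In it 1 of 5 markers compared under AL and 1 of 3 under CR was apart, Acta1, higher at 2.874 and 1.496. The 7 fibroblast markers, all detected in the 4 hearts, had a mean log2 signal of 7.76 and 8.08 in the knockout CR and AL hearts, against 7.47 and 7.59 in the control CR and AL hearts. Their median knockout over control value under AL was 0.61, with 4 of 7 at least 1.5-fold apart (4.37% of all genes), each higher. Dcn alone was below 0 under AL, at -0.20. Under CR the median was 0.22 with 1 of 7 apart (2.52%). Of the 6 atrial muscle markers, the atrial myosin light chain Myl7 was lower in the knockout hearts at -4.06 under CR and -3.95 under AL, and Myl4 at -2.71 and -2.47. The list did not move as a whole: Nppa, the atrial natriuretic peptide, was higher in the knockout hearts at 1.95 under CR and 0.99 under AL. The others compared lay between -0.09 and 0.13, and Sln was not detected in the knockout CR heart. The cardiomyocyte markers had a median of 0.19 under AL (7 of 10 above 0), with Myh6, the myosin heavy chain of adult mouse ventricle, at 1.53. Under CR their median was 0.01 (5 of 10 above 0), with Myh6 at 0.51. In whole hearts fewer cells of a type and less RNA per cell cannot be told apart, and the part of these markers in the carrier values was not tested.

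**Figure D3:**
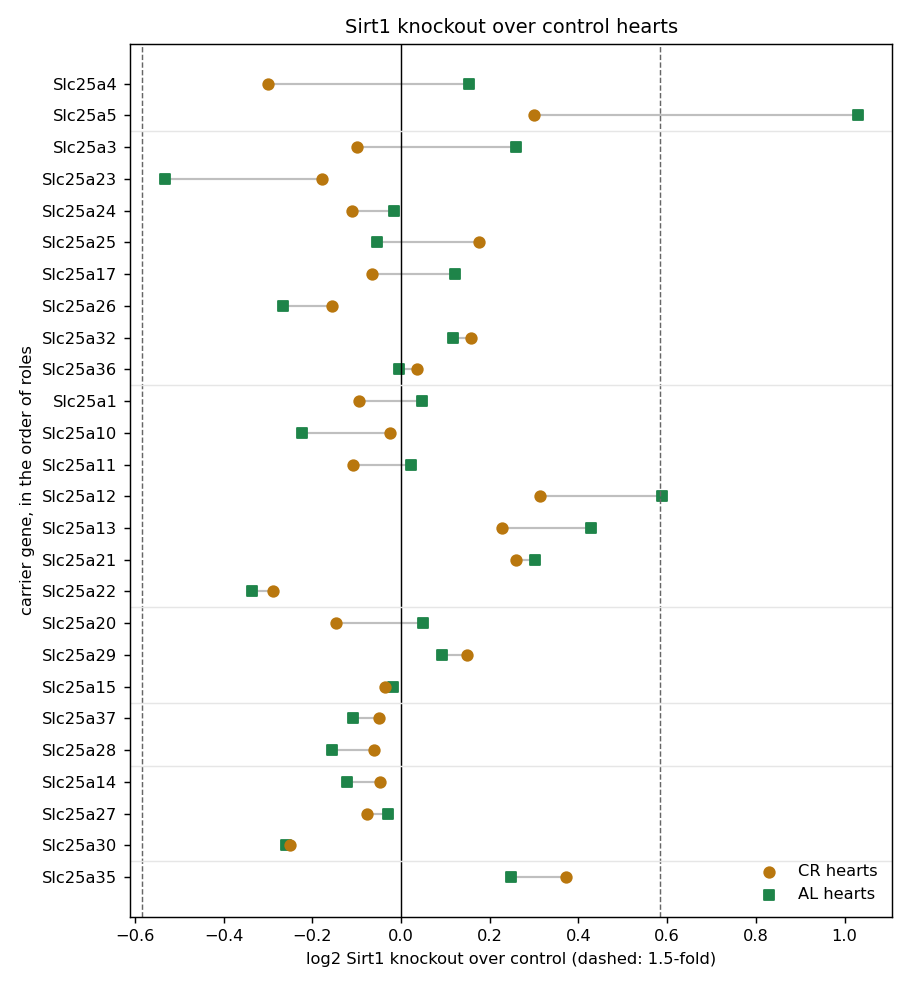
Log2 Sirt1 knockout over control (horizontal axis) of the 26 carriers detected in all 4 hearts; circles stand for the CR hearts, squares for the AL hearts, and dashed lines mark 1.5-fold. Slc25a5 at 1.03 and Slc25a12 at 0.59 under AL lie past the line, and Slc25a22 and Slc25a30 lie left of 0 under both diets.

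The 14 members described heart by heart under the rule on values included every member past 1.5-fold and the 3 highest and 3 lowest of each comparison. For the other 12 members detected in all hearts, diet values lay between -0.20 (Slc25a20) and 0.17 (Slc25a28) in the knockout hearts and between -0.15 (Slc25a29) and 0.21 (Slc25a11) in the control hearts. Their genotype values lay between -0.15 (Slc25a20) and 0.26 (Slc25a21) under CR and between -0.16 (Slc25a28) and 0.30 (Slc25a21) under AL.

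The platform lists 18 further genes of the family under older names or as Ucp and Mtch genes, and 16 of these were detected in all hearts. Ucp2, an uncoupling protein that immune cells express strongly and that also carries C4 metabolites, had the widest spread. Its log2 signal was 7.46 in the knockout CR heart and 7.39 in the knockout AL heart, against 7.74 in the control CR heart and 8.35 in the control AL heart. The control AL heart stood above the other 3: CR over AL was 0.07 in the knockout hearts and -0.62 in the control hearts (1.53-fold lower), and knockout over control was -0.96 under AL (1.95-fold lower) and -0.28 under CR. The value under AL lay between -1.25 and -0.95 in the 7 settings run, of which averaging probes and leaving out the dim-probe filter could not change it. The control diet value missed 1.5-fold with the local background subtracted (-0.47), with median centring (-0.51) and with loess within blocks (-0.57). Beside it, all 6 macrophage markers measured were higher in the knockout heart under AL, with a median of 0.26, and their part in the Ucp2 values was not tested.

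Ucp3, the uncoupling protein of muscle, had log2 signals of 6.88 and 6.73 in the knockout CR and AL hearts, against 7.30 and 7.32 in the control CR and AL hearts, so it was lower in the knockout hearts at -0.43 under CR and -0.60 under AL (1.51-fold, but -0.58 and just short of 1.5-fold with median scaling). Slc25a33, a pyrimidine nucleotide carrier, had log2 signals of 8.37 and 7.79 in the knockout CR and AL hearts, against 8.68 and 8.49 in the control CR and AL hearts. The knockout AL heart was lowest, with a CR over AL value of 0.58 in the knockout hearts (1.49-fold, and 0.70 in the authors' deposited table) and 0.19 in the control hearts, and a knockout over control value of -0.70 under AL (1.62-fold lower). Slc25a38, the glycine carrier of haem synthesis, ran in opposite directions with diet, at 0.21 in the knockout hearts and -0.34 in the control hearts.

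Of the remaining carriers under other names, Slc25a39, a glutathione carrier, was lower in the knockout hearts at -0.39 under CR and -0.28 under AL. Mtch1, an outer membrane relative of the carriers, was lower with CR at -0.29 in the knockout hearts and -0.35 in the control hearts. Of these carriers, 0 of 16 compared were at least 1.5-fold apart with diet in the knockout hearts (1.53% of all genes) and 1 of 18 (Ucp2) in the control hearts (1.16%). In the knockout hearts Slc25a33 passed with an offset of 0 (0.70), median centring (0.59), loess within blocks (0.60) and in the authors' deposited table. With the local background subtracted it was 0.43. Slc25a45 (-0.78) and Slc25a54 (0.72) passed in the authors' deposited table, against -0.15 and 0.12 as normalized here. Both were dim, with log2 signals between 5.96 and 6.19 over the 4 hearts. Many more of all genes passed in the authors' ratios too. Of 12143 genes compared in the knockout hearts, 953 were higher and 729 lower there, against 94 and 92 here. For the response difference 1 of 16 carriers was at least 1.5-fold apart as normalized here, Ucp2 at 0.68 (0.914% of all genes). Between the genotypes it was 0 of 16 under CR (2.52% of all genes) and 3 of 18 under AL (4.37%): Ucp2, Slc25a33 and Ucp3, each lower in the knockout heart.

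The enzymes and transporters that work beside the carriers were listed apart from the family, and 29 of these were on the array. Of 28 compared under AL, 3 were at least 1.5-fold higher in the knockout heart and 1 lower, while 4.37% of all genes were that far apart, and the median was 0.09 against 0.01 over all genes. The higher genes were Got1 and Got2, the aspartate aminotransferases of the shuttle in the cytosol and the matrix, at 1.07 and 0.67, and Ckmt2, the mitochondrial creatine kinase that takes up ATP exported by the translocator, at 0.70. The lower gene was Mpc2, a subunit of the mitochondrial pyruvate carrier, at -0.67. With median scaling Got2 and Ckmt2 fell short of 1.5-fold (0.32 and 0.31), and with the local background subtracted Got2 turned to -4.63. Under CR, where 2.52% of all genes were apart, 1 of 27 was at least 1.5-fold higher (Got1 at 0.66, and 0.35 with median scaling) and the lowest was Mpc2 at -0.45.

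With diet, none of the transport and shuttle partners was 1.5-fold apart on either array. Over all genes 1.53% were in the knockout hearts and 1.16% in the control hearts, and the median was 0.00 in both. In the knockout hearts values ran between -0.38 (Cpt2, the inner carnitine palmitoyltransferase) and 0.40 (Got2) around a median of 0.02. In the control hearts they ran between -0.38 (Smdt1, a regulator of the calcium uniporter) and 0.58 (Got2) around a median of 0.09. Of the response differences 9 were above 0 and 18 below (49.0% of all genes were above 0), with Ckmt2 lowest at -0.57 and Smdt1 highest at 0.23.

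Got1 had log2 signals of 13.02 and 12.93 in the knockout CR and AL hearts, against 12.36 and 11.86 in the control CR and AL hearts. Got2 had 12.59 and 12.19 in the knockout CR and AL hearts, against 12.10 and 11.51 in the control CR and AL hearts. As with Slc25a12, Slc25a13 and Slc25a5, the control AL heart was the lowest of the 4 for both aminotransferases. The malate dehydrogenases of the shuttle, Mdh1 in the cytosol and Mdh2 in the matrix, had genotype values of 0.49 and 0.34 under AL and of 0.18 and 0.04 under CR.

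Taking the 7 shuttle genes together, a grouping made after their values were seen (Slc25a12, Slc25a13, Slc25a11, Got1, Got2, Mdh1 and Mdh2), CR over AL was above 0 for 6 of 7 in the knockout hearts (median 0.08) and for 7 of 7 in the control hearts (median 0.30). In the authors' deposited ratios the control diet value was above 0 for 6 of 7. Knockout over control was above 0 for 6 of 7 under CR (median 0.23) and for 7 of 7 under AL (median 0.49). With median scaling it was above 0 for 5 of 7 under CR and 6 of 7 under AL. Over all genes 50.1% (knockout hearts) and 51.4% (control hearts) were above 0 with diet. Between the genotypes the share over all genes was 50.9% under CR and 52.5% under AL. The response difference was below 0 for 7 of 7 (median -0.28), while 49.0% of all genes were above 0. In the authors' deposited ratios, however, the response difference was above 0 for 4 of 7 with a median of 0.00. With the local background subtracted the response difference was above 0 for 5 of 7 (median 0.07), and the genotype medians were -0.36 under CR (2 of 7 above 0) and -1.28 under AL (3 of 7).

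Carriers reach the inner membrane through the TOM pore and the small Tim chaperones that serve the TIM22 complex. Of 8 genes of this route on the array, 7 were compared. In the knockout hearts Timm29, a subunit of TIM22, was higher with CR at 0.63, and Timm8a1, a small Tim chaperone, was lower at -0.71, with control values of 0.42 and -0.27 in the same directions. Under AL, Tomm40, the channel of the outer membrane, was higher in the knockout heart at 0.62, which turned to -0.36 with the local background subtracted. Timm29 missed 1.5-fold with the local background subtracted (0.41) and with loess within blocks (0.55). The medians of this list lay between -0.09 and 0.06 in the 5 comparisons.

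**Figure D4:**
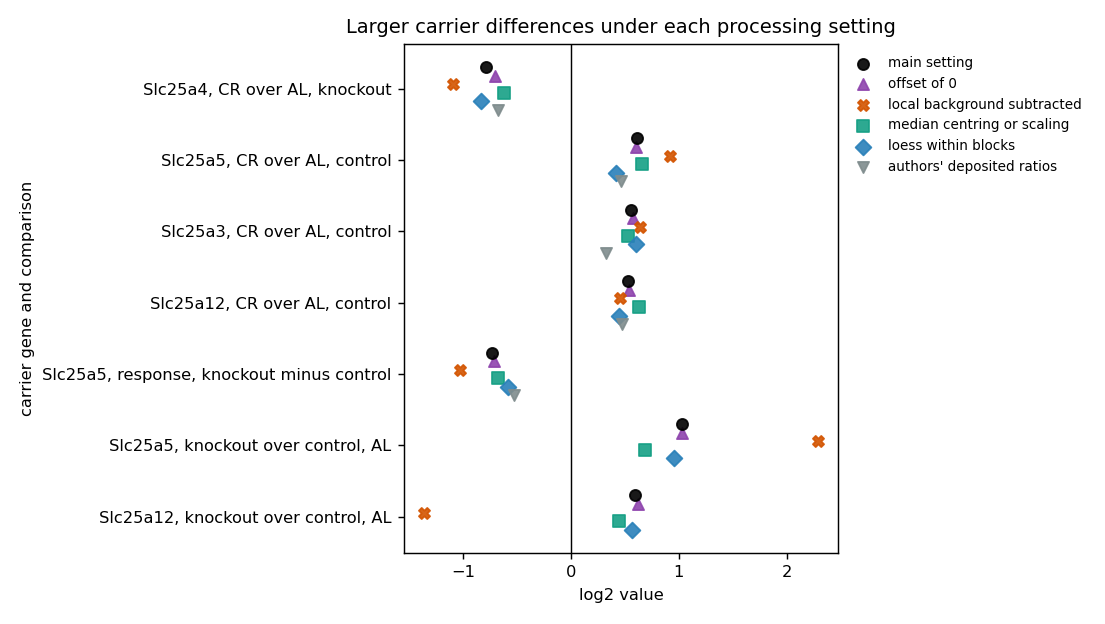
Values of the larger carrier differences (horizontal axis, log2) under 6 processing settings, each drawn with its own symbol, with the genotype comparisons missing from the authors' deposited ratios. The value of Slc25a4 in the knockout hearts stays between -1.10 and -0.62, whereas Slc25a12 under AL turns to -1.36 with the local background subtracted.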

How the data were processed

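Two-colour arrays were read from the deposited scanner tables. Their intensity columns give the median brightness of spots and of their surroundings at 635 nm (Cy5, AL) and 532 nm (Cy3, CR), merged from scans at 3 gains, per the file headers. A second deposited table gives, per the labels, the authors' normalized log2 ratio with CR on top. That table was rebuilt within 0.001 for 16554 of 16555 knockout and 17404 of 17405 control values as the log2 ratio of blank-subtracted signals minus a constant (0.144 and 0.359), so its scale, centring (column medians near 0) and direction are known.

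Intensities were corrected with normexp (offset 50) on spot signals with no local background taken off, normalized by loess (span 0.3) within each array and by Aquantile between arrays, with limma 3.58.1 in R 4.3.3. Control spots were left out, and 3 spots (knockout array) and 1 (control array) marked by the scanner had weight 0. A spot was detected above the mean of 2736 blank spots (5% trimmed at each end) plus 2 SD. Probes not detected in both hearts of a comparison were left out of it. Of 23473 probes 16631 carried a symbol, of which 12622 were current, 3947 were updated through a synonym in the RefSeq gene table of GRCm38.p6 and 62 did not match. For genes with several probes the brightest was used. Positive-control spots had SDs of log2 ratios of up to 0.0883 on the knockout array and 0.0582 on the control array, which describes spots, not mice. The steps were run on simulated arrays, where only the within-array diet ratio of the control array was scored. The genotype values after the between-array step and the response differences were not checked in this way.

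The members, the partner and marker lists and the setting without local background were chosen with earlier results of these data known. Members were given heart by heart where they were at least 1.5-fold apart in any comparison or among the 3 highest or 3 lowest of one, and others by range. Partners were named where at least 1.5-fold apart, or highest or lowest. Alternatives were an offset of 0, local background subtraction, median centring or scaling, loess within blocks, the authors' ratios, no filter on dim probes, the mean over probes and the brighter members only.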

Additional observations from a re-analysis of the deposited data

Results flagged for a closer look

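Slc25a4 ran in opposite directions between the genotypes under the 2 diets by more than the spread of control spots: knockout over control was -0.30 under CR and 0.15 under AL, a difference of -0.46 that was not tested. Taken from the authors' deposited table it was -0.08, and subtraction of the local background gave -1.04. With median scaling the value of Slc25a4 under AL was 0.03, within the spread of control spots between arrays (0.106). Slc25a5 ran in opposite directions with diet, at -0.12 in the knockout hearts and 0.61 in the control hearts, a difference of -0.73, not tested. The knockout value was -0.01 with median centring and -0.07 in the authors' deposited table, both within the control-spot SD of 0.0883. Slc25a17, the peroxisomal cofactor carrier, had -0.10 in the knockout hearts and 0.09 in the control hearts, a difference of -0.19, not tested. With the local background subtracted its control value was 0.02, within the control-spot SD of 0.0582. Slc25a38, the glycine carrier, ran in opposite directions with diet (0.21 in the knockout hearts and -0.34 in the control hearts) and between the genotypes (0.19 under CR and -0.36 under AL), with a difference of 0.55 that was not tested. Its value under CR was 0.09 with median scaling, within the spread between arrays.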

How the results depend on the processing

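No paired analysis was possible because each group had 1 heart, so no spread between mice is known and no value here has a test. In the knockout hearts 1 member was 1.5-fold apart, against 2 with the local background subtracted and 4 in the authors' deposited ratios. Over all 12145 genes compared 94 were that much higher and 92 lower. With the local background subtracted these were 250 and 174, and in the authors' ratios 953 and 729 of 12143. In the control hearts it was 1 member, against 3 with the local background subtracted and 2 each with median centring and in the authors' deposited ratios. The median there, -0.05, was -0.14 with an offset of 0 and -0.17 in the authors' deposited ratios. The response difference had 1 member apart, against 2 with an offset of 0 and 4 with the local background subtracted, and its median of -0.00 was -0.14 over members at or above the median signal. Under AL the genotypes had 2 members apart, against 4 with an offset of 0, 8 with the local background subtracted and 1 each with median scaling and with loess within blocks, and the median of 0.01 was 0.12 over the brighter members. Under CR the 0 members apart became 1 with an offset of 0 and 7 with the local background subtracted. Slc25a12 between the genotypes under AL, at 0.59, reversed to -1.36 with the local background subtracted, and Slc25a13 had -1.28 there. Subtraction of the local background turned the sign of 5 of 26 diet values in the knockout hearts, 3 of 27 in the control hearts, 11 of 26 response differences, and of the genotype values 10 of 26 under CR and 9 of 26 under AL, against at most 3 in any comparison with an offset of 0, median centring or scaling, loess within blocks or the authors' ratios. The members' local background had a median of 73.6% and 62.9% of the spot in the knockout CR and AL hearts, against 76.3% and 65.3% in the control CR and AL hearts, and whether it is background or light of the spot was not tested. Slc25a4 with diet in the knockout hearts kept its sign and stayed past 1.5-fold in each of the 8 settings that give it. Of these, averaging probes and leaving out the dim-probe filter could not change its value. Slc25a5 under AL was 0.69 with median scaling and 2.29 with the local background subtracted. Averaging probes could not change any member, since each has 1 probe. Leaving out the dim-probe filter could only add undetected members, and the counts stayed as they were. These 2 settings are therefore no check on the members already compared.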
